A study of Homo sapiens with 2 samples.

Results

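The genes examined here encode the subunits and some of the assembly factors of the respiratory chain and the ATP synthase, the machinery of oxidative phosphorylation in the inner mitochondrial membrane. They were taken from the probe annotation of the array by the start of their symbol, namely NDUF, UQCR, ATP5, SDHA to SDHD, CYC1, or COX followed by a digit between 4 and 8. Pseudogenes (6 symbols) and antisense or divergent transcripts (4 symbols) were left out. This gave 97 of the 21357 genes named in the annotation. The rule uses no measured value, but it was chosen with earlier results of these data known. The 97 include 2 readthrough genes, ATP5MF-PTCD1 and NDUFC2-KCTD14. A probe set of its own, that is one annotated to no other gene, was present for 90 of the 97, as for 19775 genes of the whole array.

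HepG2 cells, an established line from a human hepatocellular carcinoma, were used. One set of cultures had received an ethanolic extract of PADMA28 (Padma 28), a polyherbal Indo-Tibetan preparation, at 218 μg/ml for 18 h. Its solvent control had received 0.9% EtOH for the same 18 h. The 3 cultures of a treatment were combined into 1 pool, and its RNA was run on 1 array of the type Affymetrix HG U133 Plus 2.0, so no spread between cultures can be given and no test across samples was possible. The question was which transcripts differ between extract and solvent, and here whether those of oxidative phosphorylation do.

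Complex I oxidises NADH and complex II oxidises succinate, and both hand electrons to ubiquinone. Complex III passes them to cytochrome c, and complex IV passes them on to oxygen. Complexes I, III and IV pump protons, and complex V, the ATP synthase, uses the resulting gradient to form ATP. Complex II is built from nuclear genes alone, while the other complexes also contain subunits of the mitochondrial genome. Assembly factors help to build a complex without being part of it. Hepatocytes are rich in mitochondria and use these complexes for gluconeogenesis and urea synthesis.

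Values are the authors' GCRMA expression values on the log2 scale, and each difference is Padma 28 minus EtOH. Where a gene has several own probe sets, the one with the highest mean of both arrays was used. Values of 4.35 (Padma 28) and 4.25 (EtOH) were taken as the limit of background, which 39.7% of probe sets on the Padma 28 array and 40.2% on the EtOH array reached. The sorted values of both arrays lay within 0.099 of each other. Hepatocyte markers such as albumin and alpha-fetoprotein were above background on both arrays for all 9 of the 10 listed genes that had a probe set of their own, with values of 12.8 to 16.5 with Padma 28 and 13.3 to 16.6 with EtOH. Of 10 measured markers of blood, endothelium, fibroblasts, epithelium, muscle and neurons, 8 were below background on both arrays, and PECAM1 and COL1A1 were above it. A lower value can mean less RNA in each cell or fewer cells with that RNA, which cannot be told apart in such pools.

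Transcripts of the respiratory chain and the ATP synthase were close to the EtOH array, with a slight shift upwards. The median log2 difference of the 90 measured members was 0.10, with quartiles of -0.0070 and 0.18, beside a median of -0.022 for all 19775 genes. None of the 90 was more than 2-fold higher or lower, where 0.875% of all genes were higher and 0.384% lower by that measure. At a smaller limit of 0.5 log2 units, about 1.41-fold, NDUFAF1, an assembly factor of complex I, was higher and no member was lower. That limit was passed upwards by 5.04% and downwards by 2.19% of all genes. Values above 0 were found for 66 of the 90 members (73.3%), against 32.6% of all genes.

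Most members are bright, whereas many genes of the array are at background, where differences are narrow and slightly negative. The 84 members with a mean level of at least 4.30 had a median of 0.11, and the 10271 genes of the array at such levels had a median of 0.058. Of these 84, 66 (78.6%) were above 0, where the share was 58.3% of the 10271 genes. Upward differences past 0.5 made up 8.91% and downward ones 3.91% of the 10271, and past 2-fold 1.47% were higher and 0.643% lower. The 2 brightest probe sets of a member typically disagreed by 0.11 (median), about as much as the members' own median.

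**Figure D1:**
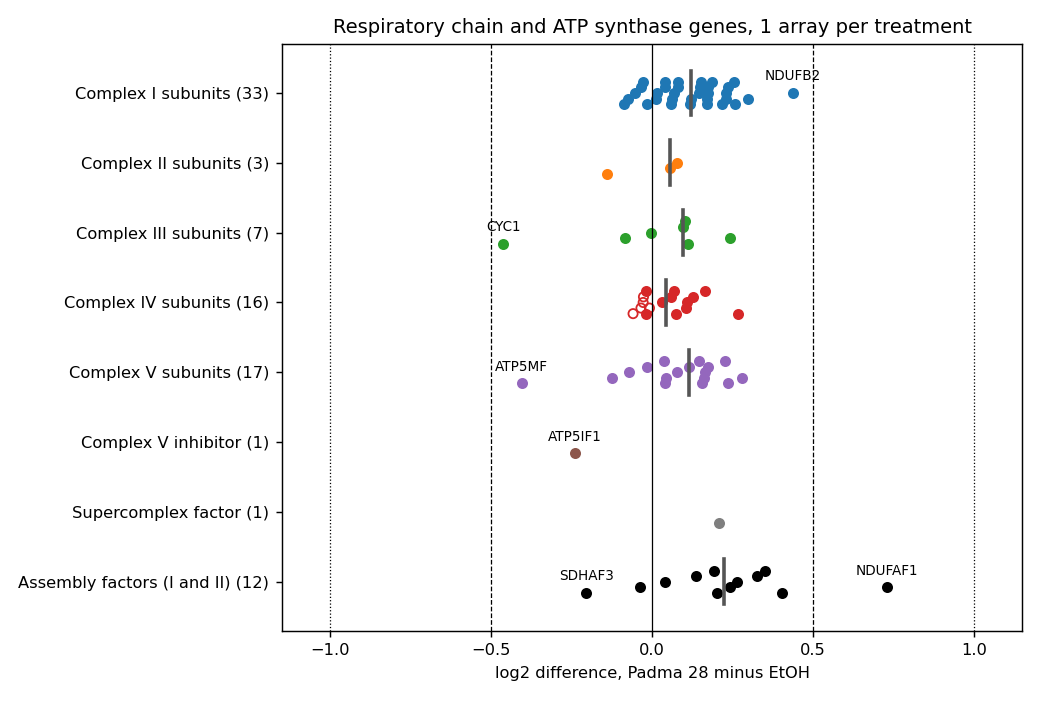
Log2 difference, Padma 28 minus EtOH (horizontal axis), of the 90 measured genes by complex (vertical axis, number of genes in brackets), from 1 array per treatment. Each point is a gene, open points were below background on both arrays, grey bars are medians, dashed lines mark 0.5 log2 units and dotted lines 2-fold. NDUFAF1 alone lies beyond a dashed line, at 0.73, and CYC1 has the lowest value, at -0.46.

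Some promoters of these genes held short sequences that the selection did not use. Letters bound by nuclear respiratory factor 1 (NRF1), by ETS factors such as GABP, and by YY1, all known for their part in the transcription of respiratory genes, were searched on both strands. The RefSeq promoter table of GRCh38.p14 holds 250 bases before and 50 bases after a start site, and it had an entry for 80 of the 97 members. The NRF1 letters, GCGCA and GCGC with any 1 base between them, were in 19 of the 80 (23.8%), in 6.05% of 27305 promoters of all genes, and in 8.22% of the 15843 promoters of coding genes, which are the closer comparison since all members are coding. The ETS letters CCGGAAG were in 23 (28.8%), against 10.6% of all and 13.99% of coding promoters. The YY1 letters AANATGGCG were in 17 (21.2%), against 3.29% of all and 4.67% of coding promoters. At least 1 of these 3 was in 47 of the 80 (58.8%), in 17.6% of all and in 23.7% of coding promoters. A match is no proof of binding, and promoters of genes of similar brightness or base composition were not compared. The median log2 difference was 0.077 over the 19 measured members with the NRF1 letters and 0.12 over the 58 without. For the ETS letters it was 0.10 over 22 members with them and 0.12 over 55 without. For the YY1 letters it was 0.052 over 16 with them and 0.12 over 61 without.

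To show what these matches look like, the stretch around the NRF1 letters is given for the brightest member of each complex and of the assembly factors whose match lies wholly before the start site. They are written 5′ to 3′ with the matched letters, on either strand, in capitals.
NDUFB4, chr3:120596152-120596211, plus strand: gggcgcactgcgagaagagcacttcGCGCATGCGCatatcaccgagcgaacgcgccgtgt
SDHD, chr11:112086738-112086797, plus strand: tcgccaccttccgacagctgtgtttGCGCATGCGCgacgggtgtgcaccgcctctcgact
UQCRC1, chr3:48609659-48609718, minus strand: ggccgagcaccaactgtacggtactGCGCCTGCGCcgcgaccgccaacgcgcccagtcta
COX8C, chr14:93347142-93347181, plus strand: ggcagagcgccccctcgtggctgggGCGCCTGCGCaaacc
ATP5PO, chr21:33915805-33915853, minus strand: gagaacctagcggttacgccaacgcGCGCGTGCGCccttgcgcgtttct
SDHAF3, chr7:97117465-97117524, plus strand: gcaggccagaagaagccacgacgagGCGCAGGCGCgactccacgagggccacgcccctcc
The log2 differences of these genes ran from -0.20 for SDHAF3, a maturation factor of complex II, to 0.078 for ATP5PO, the OSCP subunit of the peripheral stalk. COX8C, the single match in complex IV, was below background on both arrays.

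The members with the highest log2 differences among assembly factors and subunits, NDUFAF1 and NDUFB2, are shown with the 250 bases before their start site. Neither held the NRF1, ETS or YY1 letters in the 300 bases searched. NDUFB2 held the cyclic AMP response element TGACGTCA, shown in capitals and looked for after its sequence had been seen, as did NDUFA10, ATP5MC1 and ATP5ME. This element was in 4 of the 80 members (5.0%), in 1.94% of all and in 2.52% of coding promoters. The 4 include NDUFB2, which prompted the search, so this share cannot show an excess among the members.
NDUFAF1, chr15:41402497-41402746, minus strand: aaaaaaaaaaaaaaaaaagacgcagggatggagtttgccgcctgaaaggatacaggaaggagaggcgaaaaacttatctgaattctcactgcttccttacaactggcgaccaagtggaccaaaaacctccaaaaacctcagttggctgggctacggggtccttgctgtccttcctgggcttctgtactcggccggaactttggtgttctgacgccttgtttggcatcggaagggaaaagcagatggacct
NDUFB2, chr7:140696458-140696707, plus strand: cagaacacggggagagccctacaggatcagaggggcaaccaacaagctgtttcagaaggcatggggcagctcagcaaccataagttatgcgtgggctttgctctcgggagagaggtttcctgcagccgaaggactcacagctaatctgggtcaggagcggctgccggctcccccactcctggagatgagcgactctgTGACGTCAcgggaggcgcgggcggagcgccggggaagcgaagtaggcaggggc

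Of 12 assembly factors of complexes I and II, all above background, 10 were above 0, and their median was 0.22. The 70 subunits of complexes I to V with a mean level of at least 4.30 had a median of 0.10, with 55 above 0. The factors were dimmer, with a median EtOH value of 9.06 beside 11.99 for these subunits. Among all genes, the median difference was 0.074 at levels of 8 to 10 and 0.037 at 12 to 14. Centred along a loess curve, the median of the 12 factors was 0.16. All 8 factors of complex I in the selection were above 0, with a median of 0.30. The share above 0 was 58.3% among the 10271 genes of the array at a mean level of at least 4.30. The 4 factors of complex II had a median of 0.049, with 2 above 0. For 48 further assembly factors outside the selection the median was 0.11, close to that of the subunits. They include factors of complex I on both sides of 0, such as ACAD9 and NUBPL at -0.097 and -0.036, and TIMMDC1 and TMEM126B at 0.43 and 0.39. No test of the difference between factors and subunits was made.

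NDUFAF1, a chaperone for the membrane arm of complex I, had a value of 5.95 with Padma 28 and 5.22 with EtOH. Its log2 difference was 0.73, or 1.66-fold, the highest of all members. Only 1 probe set represents it, not far above background, and adding 16 or 64 to both linear values lowered the difference to 0.55 or 0.31. NDUFAF7, a methyltransferase acting on a core subunit of complex I, had 9.85 with Padma 28 and 9.45 with EtOH, a difference of 0.40. Its other probe sets, also above background, were at 0.0093 and -0.083. NDUFAF2, which acts late in the assembly of complex I, had 10.49 with Padma 28 and 10.14 with EtOH, and differed by 0.35.

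NDUFAF6, a further factor of complex I, had 8.95 with Padma 28 and 8.63 with EtOH, a difference of 0.33. NDUFAF5, which hydroxylates a core subunit, differed by 0.27, and a further probe set of nearly the same brightness by 0.34. NDUFAF4 and NDUFAF3, partners in early assembly, differed by 0.20 and 0.19. NDUFAF8, which stabilises NDUFAF5, had 10.97 with Padma 28 and 10.93 with EtOH, and was nearly level at 0.040.

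Among the factors of complex II, SDHAF2, which is needed to attach the flavin to SDHA, had 9.04 with Padma 28 and 8.80 with EtOH, a difference of 0.24. SDHAF1, which helps to insert iron-sulfur clusters, differed by 0.14. SDHAF4, which acts on SDHA, was at -0.038. SDHAF3 had 7.62 with Padma 28 and 7.83 with EtOH, a difference of -0.20. These 4 factors showed no common direction.

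Subunits of complex I were mostly slightly higher with Padma 28. Of 36 subunits by the rule, 33 had a probe set of their own, all above background on both arrays, and 27 were above 0. Their median was 0.12, ranging from -0.087 to 0.44. The 5 measured core subunits, which carry out electron transfer, had a median of 0.15 and the 28 accessory subunits one of 0.12.

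NDUFB2, an accessory subunit of the membrane arm, had 11.16 with Padma 28 and 10.73 with EtOH. Its log2 difference of 0.44, or 1.35-fold, was the highest of all subunits. A second probe set above background was at 0.51. NDUFA7, an accessory subunit of the matrix arm, had 9.45 with Padma 28 and 9.15 with EtOH, a difference of 0.30. NDUFB10, of the membrane arm, had 10.49 with Padma 28 and 10.24 with EtOH, a difference of 0.26, and its other probe set was at 0.37.

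NDUFV1, the subunit that binds NADH and its flavin, had 10.95 with Padma 28 and 10.73 with EtOH, a difference of 0.22, the highest of the core subunits. NDUFS7, an iron-sulfur subunit near the ubiquinone site, had 8.49 with Padma 28 and 8.32 with EtOH, a difference of 0.17. The other core subunits NDUFV2, next to NDUFV1, and NDUFS3, of the matrix arm, were at 0.15 and 0.014. NDUFS1, the largest iron-sulfur subunit, had 11.63 with Padma 28 and 11.58 with EtOH, and differed by 0.041. One of the dim probe sets of NDUFS1 was above background with Padma 28 alone and at least 1.27-fold higher there. The brightest probe sets of complex I belonged to NDUFAB1, the mitochondrial acyl carrier protein, with 13.65 with Padma 28 and 13.48 with EtOH, to NDUFB4, with 13.42 with Padma 28 and 13.35 with EtOH, and to NDUFC1, with 13.03 with Padma 28 and 12.88 with EtOH. These differed by 0.17, 0.067 and 0.14.

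Further accessory subunits filled the range in between. NDUFB5, NDUFA13, NDUFB6 and NDUFS6 were at 0.25, 0.24, 0.23 and 0.23, and NDUFB3, NDUFA8, NDUFA3 and NDUFS4 at 0.19, 0.17, 0.17 and 0.12. NDUFA5, NDUFA6, NDUFA11, NDUFA12 and NDUFA2 were at 0.080, 0.062, 0.058, 0.041 and 0.011, and NDUFB7, NDUFB11 and NDUFA9 slightly below 0, at -0.017, -0.029 and -0.035.

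The lowest values in complex I were small. NDUFV3 had 9.57 with Padma 28 and 9.66 with EtOH, a difference of -0.087, with a second probe set at -0.085. NDUFB9 was at -0.074 and NDUFB8 at -0.054, both accessory subunits. NDUFC2, NDUFS5 and NDUFS8, which share their probe sets with other genes, were not counted. The brightest of these shared probe sets differed by 0.051, 0.066 and 0.029.

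Complex II was close to the solvent control in its 3 measured subunits. SDHA, the flavoprotein that oxidises succinate, had 10.93 with Padma 28 and 11.07 with EtOH, a difference of -0.14. The membrane anchor SDHC had 12.50 with Padma 28 and 12.44 with EtOH, and differed by 0.055. The anchor SDHD had 11.88 with Padma 28 and 11.80 with EtOH, and differed by 0.077. SDHC had 7 probe sets, from -0.25 to 0.25, so differences of this size were within what different probe sets of 1 gene gave.

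Complex III held the lowest value of all members. CYC1, cytochrome c1, which passes electrons on to cytochrome c, had 13.05 with Padma 28 and 13.52 with EtOH. Its log2 difference was -0.46, or 1.38-fold lower, on a single bright probe set, and -0.50 after centring along a loess curve. The other 6 measured subunits ranged from -0.083 to 0.24, and the median of all 7 was 0.097.

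UQCRC1 and UQCRC2, the core proteins of complex III, were nearly level. UQCRC1 had 12.52 with Padma 28 and 12.60 with EtOH, a difference of -0.083. UQCRC2 had 13.50 on both arrays and differed by -0.0036. The small subunit UQCR11 had 11.46 with Padma 28 and 11.22 with EtOH, and was the highest at 0.24. UQCRB and UQCRQ, small subunits at the ubiquinone side, were at 0.11 and 0.10. UQCRH, the hinge protein, and its intronless copy UQCRHL share 1 probe set, with 13.86 with Padma 28 and 13.68 with EtOH, so they cannot be told apart.

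Complex IV lay close to the solvent control, and most of its tissue-specific isoforms were below background on both arrays. The 16 measured subunits ranged from -0.059 to 0.27, with a median of 0.044. With the 10 genes above background on both arrays alone, the median was 0.089. COX7B had 11.99 with Padma 28 and 11.72 with EtOH, and was the highest at 0.27. COX5A, one of the brightest, had 14.03 with Padma 28 and 13.93 with EtOH, and differed by 0.10. The further small subunits COX6C, COX7C and COX5B differed by 0.13, 0.074 and 0.067.

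Several subunits of complex IV exist as paralogs, of which liver uses the common or liver form. COX4I1, the common form of subunit 4, had 13.29 with Padma 28 and 13.23 with EtOH, a difference of 0.059. COX4I2, its form in lung and under low oxygen, was at the limit of background, with 4.35 with Padma 28 and 4.37 with EtOH, and only the EtOH value was above it. COX6A1, the liver form of subunit 6A, had 13.79 with Padma 28 and 13.76 with EtOH, while COX6A2, the form of heart and muscle, had 2.11 with Padma 28 and 2.15 with EtOH. For subunit 7A, the liver form COX7A2 had 13.38 with Padma 28 and 13.40 with EtOH, and the muscle form COX7A1 had 2.07 with Padma 28 and 2.10 with EtOH.

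The same held for COX6B1, with 12.20 with Padma 28 and 12.04 with EtOH, and its testis form COX6B2, with 1.97 with Padma 28 and 1.98 with EtOH. COX8A had 12.43 with Padma 28 and 12.32 with EtOH, and its paralog COX8C had 2.65 with Padma 28 and 2.71 with EtOH. COX7B2, the paralog of COX7B, had 2.53 with Padma 28 and 2.55 with EtOH. The forms COX6A2, COX7A1, COX6B2, COX8C and COX7B2 were thus below background on both arrays. COX7A2L, a factor of supercomplexes of complexes III and IV, had 11.77 with Padma 28 and 11.56 with EtOH, a difference of 0.21.

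**Figure D2:**
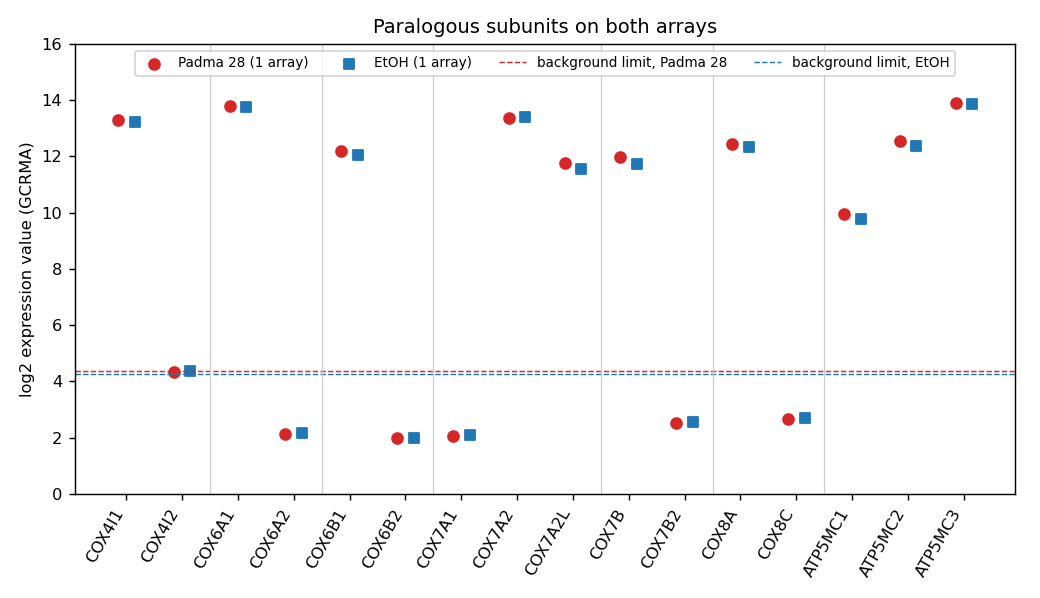
Log2 expression value (vertical axis) of paralogous subunits of complex IV and of the c ring of complex V (horizontal axis) on the Padma 28 array (red circles) and on the EtOH array (blue squares), with dashed lines at the background limits of 4.35 and 4.25. COX6A2, COX6B2, COX7A1, COX7B2 and COX8C lie below the limits on both arrays, and COX4I2 lies at them.

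The 17 measured subunits of complex V had a median of 0.11, with 13 above 0. Without _x_at and _s_at probe sets the median was -0.0080, but several genes then rest on dim probe sets. ATP5F1A, ATP5MC2 and ATP5PB have mean levels of 2.70, 1.98 and 2.61 there, below background on both arrays. The value of -0.0080 is that of a probe set of ATP5PD with a mean level of 5.45, where the one used has 12.90. The 12 subunits of Fo and the peripheral stalk had a median of 0.15, and 11 of them were above 0. The 5 subunits of F1, which holds the catalytic head and the central stalk, had a median of -0.016, with 2 above 0. The difference between these groups was not tested. ATP5F1A, the alpha subunit, had 14.34 with Padma 28 and 14.35 with EtOH, and differed by -0.016. ATP5F1B, the catalytic beta subunit, differed by 0.042.

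Within F1, the central stalk subunits lay on both sides of 0. ATP5F1C, the gamma subunit, had 13.04 with Padma 28 and 12.81 with EtOH, a difference of 0.23. ATP5F1D, the delta subunit, had 9.32 with Padma 28 and 9.44 with EtOH, a difference of -0.12. ATP5F1E, the epsilon subunit, had 14.20 with Padma 28 and 14.27 with EtOH, a difference of -0.071. Of these, ATP5F1C has a dimmer probe set at -0.49.

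In the membrane part, ATP5MK, also known as DAPIT, had 12.83 with Padma 28 and 12.55 with EtOH, and was the highest at 0.28. The stalk subunits ATP5PD and ATP5PB were at 0.16 and 0.15, and ATP5PF at 0.039. ATP5MJ and ATP5MG, of the membrane part, were at 0.16 and 0.11. ATP5ME, subunit e, had 12.81 with Padma 28 and 12.57 with EtOH, a difference of 0.23. The c ring, which turns as protons pass, is encoded by ATP5MC1, ATP5MC2 and ATP5MC3, whose mature proteins are identical. ATP5MC1 had 9.96 with Padma 28 and 9.78 with EtOH. ATP5MC2 had 12.54 with Padma 28 and 12.38 with EtOH. ATP5MC3 had 13.91 with Padma 28 and 13.87 with EtOH, so the differences were 0.17, 0.17 and 0.038.

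ATP5MF, subunit f, shows how the choice of probe set matters. Its own probe set had 4.05 with Padma 28, below background, and 4.45 with EtOH, so only a level at least 1.07-fold lower holds. A brighter probe set, which the annotation shares with ARMC2-AS1, had 11.98 with Padma 28 and 11.99 with EtOH, and differed by -0.011. ATP5IF1, the inhibitor that keeps the synthase from consuming ATP, had 10.72 with Padma 28 and 10.96 with EtOH. Its difference was -0.24, and its other probe sets were at -0.16 and -0.089, so all 3 lay below 0.

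Set against genes of the same brightness, most members lay within the quartiles, and those outside lay mostly above them. By definition, all genes lie above and below their quartiles in equal shares. Between levels of 10 and 12, 20 of 32 members lay within the quartiles of all genes, -0.12 and 0.21, with 10 above and 2 below them. Between 12 and 14, 25 of 33 members were within the quartiles, with 7 above and 1 below. Between 8 and 10, 9 of 13 members were within, with 3 above and 1 below. Members with levels outside 8 to 14, NDUFAF1 among them, are not in these counts. The medians of the members were 0.17, 0.14 and 0.078 from the lower to the upper range, beside 0.074, 0.057 and 0.037 for all genes.

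**Figure D3:**
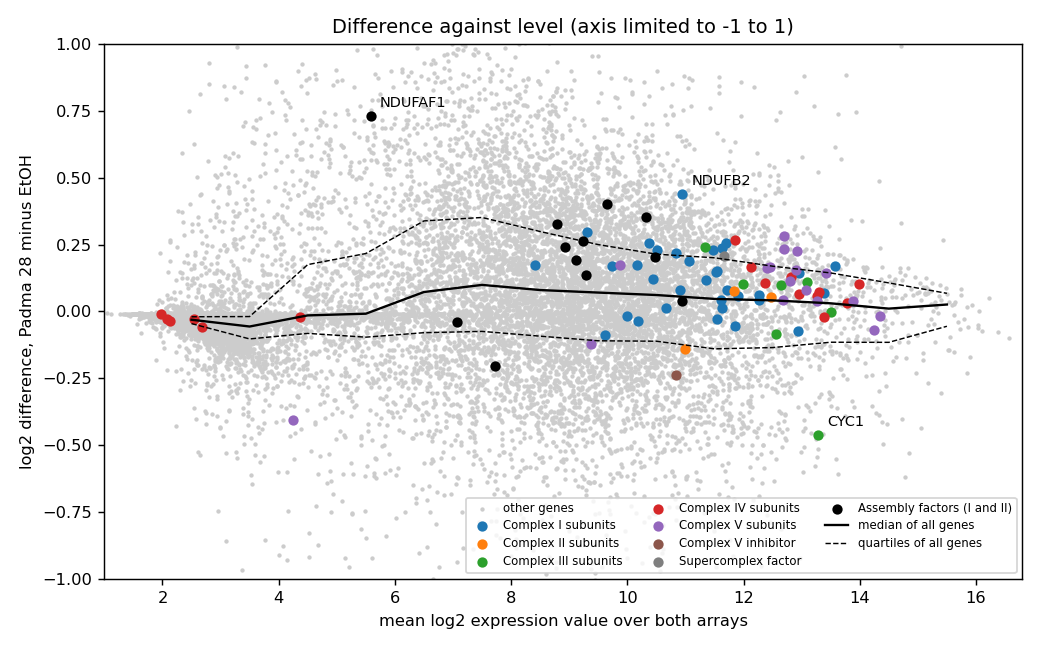
Log2 difference, Padma 28 minus EtOH (vertical axis), against the mean log2 value of both arrays (horizontal axis), from 1 array per treatment. Coloured points are the members by complex and grey points are other genes, of which those beyond 2-fold are outside the frame, and the lines give the median and quartiles of all genes per unit of level. NDUFAF1 and NDUFB2 lie above the lines, at 0.73 and 0.44, and CYC1 lies below them, at -0.46.

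The agreement between probe sets of a gene was the only gauge of spread at hand. Such probe sets are read from the same RNA on the same array. Their agreement therefore does not show the spread between pools, labellings or hybridizations. Over 30 members with at least 2 probe sets at or above a mean level of 4.30, the differences of the 2 brightest varied by a median of 0.11, beside 0.14 over 4996 genes of the array. UQCR10, a small subunit of complex III, was the widest of them. Its brightest probe set had 12.69 with Padma 28 and 12.59 with EtOH, a difference of 0.097, while its dimmer one had 7.12 with Padma 28 and 5.88 with EtOH, which is 2.36-fold higher. Of 173 probe sets belonging to a member alone, this was the only one past 2-fold.

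Beyond 0.5 log2 units were 7 of the 173 probe sets upwards and 1 downwards, in 8 genes, where the shares of all 41097 probe sets of 1 gene were 4.32% and 2.8%. Above background on both arrays were 132 of the 173, of which 5 were past 0.5 upwards and 1 downwards, beside 8.13% and 5.26% of 18367 such probe sets. The others were a probe set of COX5A, below background on both arrays, and the one of NDUFS1 whose lower limit of 1.27-fold does not reach 0.5. A dim probe set of UQCRB had a difference of 0.62, or 1.53-fold, beside 0.11 on the brightest. A dim probe set of COX4I1 had 5.87 with Padma 28 and 6.57 with EtOH, a difference of -0.71, beside 0.059. For ATP5MC3 a dim probe set was at 0.55, beside 0.038 on the brightest. Except for NDUFAF1 and NDUFB2, the brightest probe set of each of these genes was within 0.11 of 0.

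**Figure D4:**
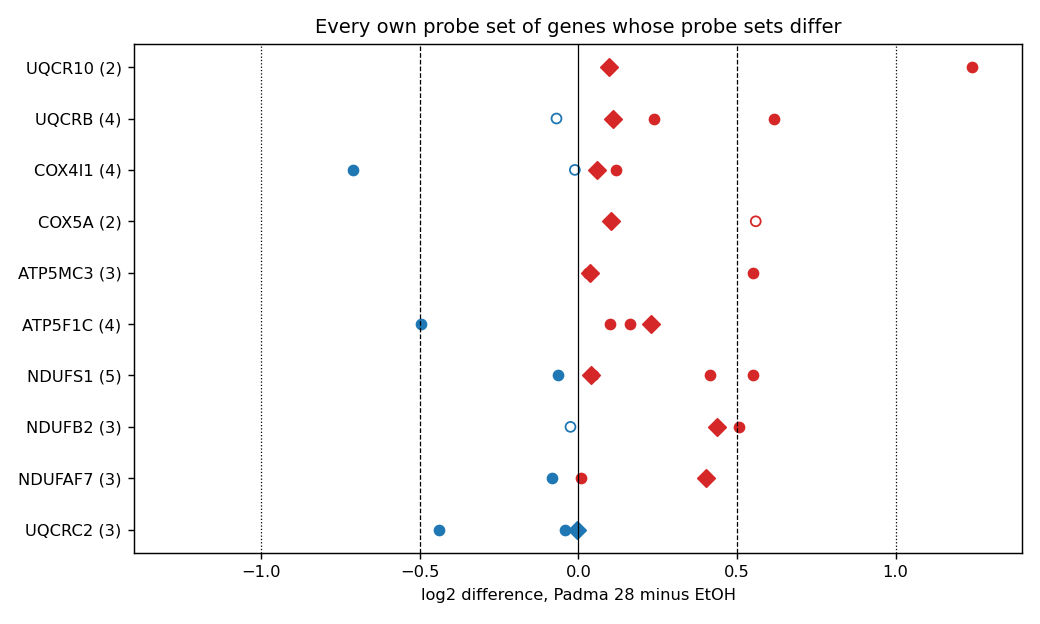
Log2 difference, Padma 28 minus EtOH (horizontal axis), of every probe set of its own for 10 genes whose probe sets differ (vertical axis, number of probe sets in brackets), chosen after the values were seen, from 1 array per treatment. Diamonds stand for the probe set used and circles for the others, red is above and blue below 0, open symbols had no value above background, filled ones at least 1 such value, and dashed and dotted lines mark 0.5 log2 units and 2-fold. The dim probe set of UQCR10 lies beyond 2-fold, while its brightest one is at 0.097.

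Lists of related genes are set here beside the 10271 genes of the array with a mean level of at least 4.30, of which 58.3% were above 0 and 8.91% past 0.5 upwards, with a median of 0.058. Of 48 further assembly factors outside the selection, 34 were above 0 (70.8%), with a median of 0.11, 3 past 0.5 upwards and 1 downwards. BCS1L, which inserts the Rieske protein into complex III, had 9.29 with Padma 28 and 8.69 with EtOH, a difference of 0.60. COX14 and COA7, factors of complex IV, were at 0.54 and 0.52. DMAC2L, once described as coupling factor B of the ATP synthase, had 9.12 with Padma 28 and 9.68 with EtOH, a difference of -0.56.

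For the mobile carriers, 18 genes of cytochrome c, electron transfer flavoprotein and coenzyme Q synthesis had a median of 0.14, with 15 above 0 (83.3%). COQ4, needed for coenzyme Q synthesis, had 8.41 with Padma 28 and 7.86 with EtOH, a difference of 0.55. CYCS, cytochrome c itself, had 13.03 with Padma 28 and 12.72 with EtOH, a difference of 0.31. The tricarboxylic acid cycle, which supplies NADH and succinate, had a median of 0.090 over 12 genes, with 10 above 0. IDH3A, a subunit of isocitrate dehydrogenase, was at 0.57 and citrate synthase CS at -0.28. These values rest on the brightest probe set of each gene. The paper lists IDH3A as more than 2-fold higher and SUCLG1, at 0.078 here, as more than 2-fold lower on the same arrays. Its qPCR did not bear out the fall of SUCLG1. These genes have 3 and 2 probe sets of their own, so larger differences in this list are not excluded.

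The 75 measured proteins of the mitochondrial ribosome, which makes the subunits encoded in the mitochondrial genome, had a median of 0.19, with 63 above 0 (84.0%). MRPL24 had 10.22 with Padma 28 and 9.42 with EtOH, the highest at 0.80, and MRPL23 the lowest at -0.38. For the cytosolic ribosome, which is no part of mitochondria, the share above 0 was nearly the same, at 47 of 56 genes (83.9%), with a median of 0.065 and none past 0.5. The 15 chaperones and proteases of mitochondrial quality control had a median of 0.094, with 10 above 0, and none passed 0.5.

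Among 15 regulators of mitochondrial biogenesis the median was 0.067, with 11 above 0. TFB1M, which methylates the small ribosomal RNA of mitochondria, had 10.44 with Padma 28 and 9.71 with EtOH, a difference of 0.73. GABPA, the ETS factor of respiratory genes, was at 0.31, TFAM, which packs mitochondrial DNA, at 0.18, and the coactivator PPARGC1A at 0.15. Of the 4 regulators below 0, POLRMT was the lowest at -0.18, and GABPB1 was at -0.12. NRF1 differed by 0.0092. None of the 13 subunits encoded in the mitochondrial genome had a named probe set here, so they were not analysed.

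**Figure D5:**
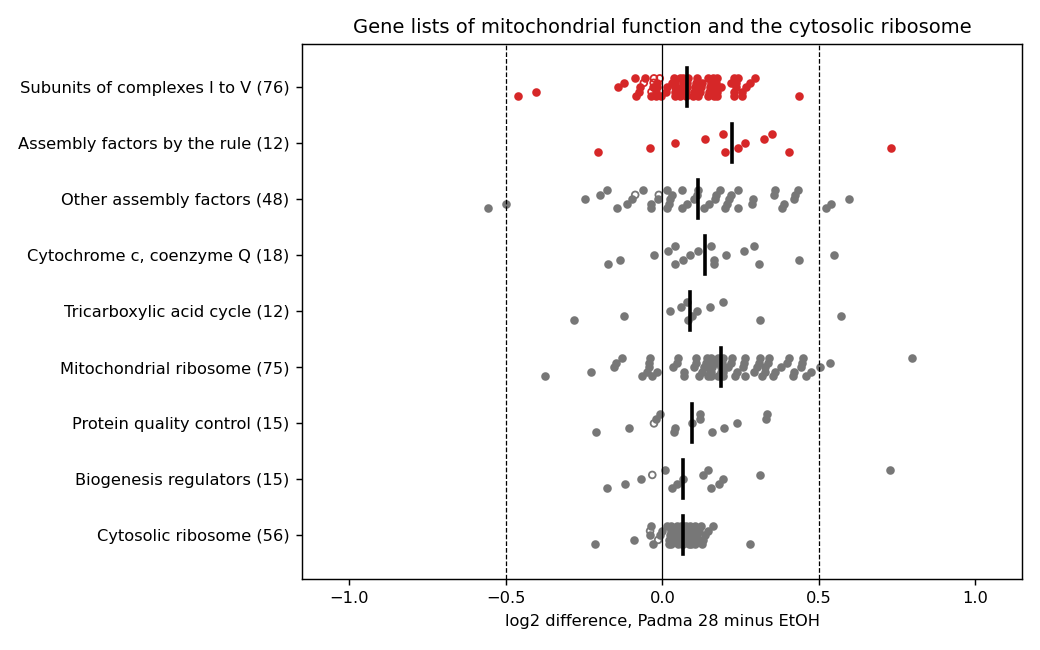
Log2 difference, Padma 28 minus EtOH (horizontal axis), of the genes of 9 groups (vertical axis, number of measured genes in brackets), from 1 array per treatment. Each point is a gene, the subunits and assembly factors chosen by symbol are red and the other lists grey, open points were below background on both arrays, black bars are medians and dashed lines mark 0.5 log2 units. All 9 medians lie above 0, between 0.065 for the cytosolic ribosome and 0.22 for the assembly factors.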

How the data were processed

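RNA of 2 samples, 1 per treatment, was analysed. With GCRMA, the authors corrected the scans for sequence-dependent background, normalized by quantiles and summarized by median polish, and they deposited log2 values for 54675 probe sets. Versions in the submitters' processing notes are 2.28.0 for GCRMA and 2.15.1 for R, while the paper names others. Quantile normalization forces both arrays to the same distribution, so a shift of all transcripts would not be seen.

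Genes were named from the supplied platform annotation, in which 41097 probe sets had 1 gene, 1801 several and 11777 none. The limit of background lay 2 log2 units above the mode of an array's values, taken in bins of 0.1. A gene below it on 1 array has only a lower limit of its fold, against the limit of that array or its own value if higher. The members and gene lists were chosen with earlier results of these data known.

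The text names, per complex, the 3 brightest members, the 3 highest and 3 lowest above background, members past 0.5 log2 units, those with discordant probe sets, and paralogs. Other members were added to the text with their values known. The 11 alternatives concerned the probe set used, filters, added values, normalization and probe set types. No test was possible, and the number of arrays limits the precision. Steps were tested on simulated data. Scripts ran in Python 3.11.15 (matplotlib 3.10.9, statsmodels 0.14.6, pandas 2.3.3, numpy 2.4.6).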

Additional observations from a re-analysis of the deposited data

How the results depend on the processing

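The median of the members lay between 0.042 and 0.14 and stayed above 0 under all 11 alternatives. Bright genes of the array also lie above 0. With only genes above background on both arrays, the median was 0.11 for the members and 0.057 for all genes. Centred along a loess curve, the medians were 0.050 and 0.00039. Of 132 recomputed medians and counts, 120 moved by less than 0.11 log2 units or by at most 1.5 times. That limit is about as large as the members' own median of 0.10, so a small median could change sign without counting as moved. The median of complex IV did so, from 0.044 to -0.019. This count therefore says little about the smaller medians. With the probe set of the largest difference, 1 member was more than 2-fold higher, 7 were past 0.5 upwards and 1 downwards, and the median of complex II was -0.14. Without _x_at and _s_at probe sets, which left 59 members above background, these values were 1, 5, 1 and -0.089, and the medians of complexes IV and V were -0.019 and -0.0080. In that setting genes such as ATP5F1A, ATP5MC2 and ATP5PB are represented by probe sets below background. With a gene's median probe set value 2 members were past 0.5 upwards, with 64 added to both linear values 0, and along a loess curve 1 was past 0.5 downwards. The cause was not tested.

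The medians of complex I (0.063 to 0.15), complex III (0.049 to 0.12) and the assembly factors (0.16 to 0.28) kept their sign under every alternative. With 1 array per treatment no replicate could be left out. No paired analysis was possible because each treatment has a single sample.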

Other observations

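Among the transcripts left out by the selection, NDUFV2-AS1, antisense to a core subunit of complex I, had 5.85 with Padma 28 and 5.88 with EtOH on its brighter probe set. The pseudogene ATP5MC2P1 had 5.90 with Padma 28 and 5.91 with EtOH. NDUFB2-AS1, antisense to the highest subunit NDUFB2, was below background on both arrays, with 2.41 with Padma 28 and 2.43 with EtOH. Probe sets annotated to KCTD14 as well as to the readthrough gene NDUFC2-KCTD14 were at 0.75 and 0.57, while those that NDUFC2 shares with the same readthrough gene were at 0.051 and -0.011.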
